A study of Sus scrofa with 67 samples.

Results

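The endometrium, the inner lining of the uterus, was compared between day 0 and day 3 of the oestrous cycle of the pig. Of the 66 RNA sequencing libraries in the table of counts, the 6 endometrial libraries of those days were taken by the tissue and the day in their column names, 3 for day 0 and 3 for day 3, and all genes were used. The study sequenced poly-A RNA from the endometrium, oviduct and ovary on 7 days of the cycle, in order to follow how the transcriptome of each tissue changes from the start of the cycle. Day 0 was the onset of oestrous behaviour, when the gilt (a female pig that has not yet had a litter) stands to be mounted. The animals were untreated Landrace and Yorkshire crosses, 3 for each day by the study's methods, and each gave all 3 tissues. Muscle was trimmed off before the lining was frozen. A library is named here by its day and by the number in its column name. Both groups are whole endometrium, so luminal and glandular epithelium, stroma, vessels and immune cells were ground together. In such bulk samples, fewer cells of a type and less RNA per cell cannot be told apart.

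The oestrous cycle is driven by the ovary. Around day 0 the follicles secrete oestradiol, which binds oestrogen receptor alpha in the endometrium and is known for growth of the tissue, oedema of the stroma and growth of the glands. After ovulation the ruptured follicles turn into corpora lutea, and progesterone begins to replace oestradiol, so day 3 falls in metoestrus, between the oestrogen-dominated and the progesterone-dominated phase. Collagens laid down by stromal fibroblasts make up most of the fibrous matrix of the endometrium, while the epithelium secretes the fluid in which embryos later develop.

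The total count was between 9555136 and 10136163 on day 0 and between 8968120 and 11192826 on day 3. At these depths 3 counts, taken as the lowest detectable level, correspond to between 0.253 and 0.302 CPM (counts scaled to the effective library size, so that libraries of unequal depth can be compared), a limit that covers counting error only. Epithelial and stromal markers were present in all 6 libraries. KRT8, an epithelial keratin, was at 691 to 888 CPM on day 0 and 1029 to 1286 CPM on day 3, and VIM, an intermediate filament of stromal cells, was at 1109 to 1815 CPM and 1105 to 1348 CPM. Libraries of the same day had correlations of log2 levels between 0.957 and 0.982 across genes, and libraries of different days between 0.947 and 0.976, with means that come close to each other (0.973 and 0.964). Day 3 library 3 stood apart from the other 2 of its day in the summed level of 39 tested cell cycle genes, with 2619 CPM against 862 and 808 CPM.

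Of the 15341 genes tested, 52 were called different at an adjusted p under 0.05 by the quasi-likelihood test of edgeR after Benjamini-Hochberg adjustment, which is 0.339% of them. Of these, 42 fell (0.274%) and 10 rose (0.0652%) from day 0 to day 3. The falls were between 1.58-fold and 36.8-fold and the rises between 2.70-fold and 7.23-fold, and 6 of the 52 changes were under 2-fold. In all 52 the lowest library of one day lay above the highest library of the other. Groups that did not overlap were found in 8.82% of all genes with the lower level on day 3 and in 8.24% with the higher level on day 3. The median log2 fold change over all genes was 0.01. A symbol could be paired with 26 of the fallen and 8 of the risen genes.

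**Figure D1:**
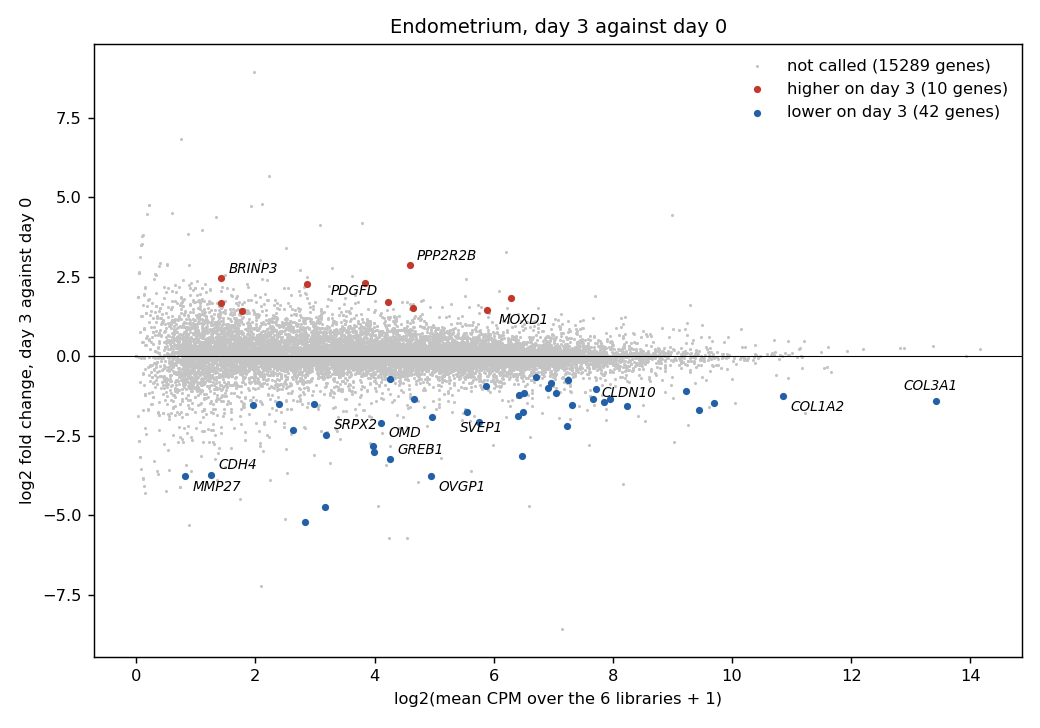
Each point is 1 of the 15341 genes tested, with log2(mean CPM over the 6 endometrial libraries + 1) on the x axis and the log2 fold change of day 3 against day 0 on the y axis, grey where not called, red for the 10 higher and blue for the 42 lower on day 3. COL3A1 and COL1A2 lie far to the right among the genes with the most counts, with falls of 1.41 and 1.25 on the log2 scale, and most of the genes with a large change in either direction are grey.

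The calls rested on few libraries. Without day 0 library 2 or without day 3 library 1 a single gene was called. The count was 13 without day 0 library 3, 44 without day 0 library 1, 28 without day 3 library 2 and 5 without day 3 library 3. The direction of all 52 genes stayed in each of these 6 fits, and 1 of them, ENSSSCG00000017581, was called in all 6. This gene, which has no symbol here, had 1013, 1033 and 1132 CPM on day 0 and 267, 328 and 389 CPM on day 3. Its fall of 1.69 ± 0.19 (SE) on the log2 scale had the smallest adjusted p of the comparison, 0.000514 by edgeR's quasi-likelihood test. DESeq2's Wald test on the same counts called 189 genes, 114 lower and 75 higher, and these included all 52.

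Fibrillar collagens took the most counts of the genes that fell. COL3A1, the main chain of type III collagen, was at 16174, 14276 and 17336 CPM on day 0 and at 5248, 6655 and 6091 CPM on day 3. Every library of day 3 was below every library of day 0. The fall of COL3A1 was 1.41 ± 0.25 on the log2 scale, or 2.66-fold, with an adjusted p of 0.0191 by edgeR's quasi-likelihood test. COL1A2, a chain of type I collagen, was at 2391, 2818 and 2591 CPM on day 0 and at 1050, 998 and 1226 CPM on day 3, a fall of 1.25 ± 0.22 (adjusted p = 0.0191, edgeR). Again every library of day 3 was below every library of day 0. COL1A1, the partner chain, could not be looked up because no identifier was paired with it.

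Genes that process collagen outside or inside the cell were also among the calls, and they are named here because their values were seen. PCOLCE, which helps to cut the end off procollagen, was at 252, 279 and 314 CPM on day 0 and at 124, 130 and 160 CPM on day 3, a fall of 1.03 ± 0.16 (adjusted p = 0.00855, edgeR). P3H1, which hydroxylates prolines in procollagen in the endoplasmic reticulum, fell by 0.66 ± 0.13, from 121 to 135 CPM down to 73.7 to 89.4 CPM (adjusted p = 0.0296, edgeR). Its change was the smallest of the 42 falls, and its libraries varied little within a day. SERPINF1, a secreted protein that binds collagen, fell by 0.99 ± 0.19, from 149 to 170 CPM down to 67.4 to 102 CPM (adjusted p = 0.0262, edgeR).

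Other secreted and cell surface proteins of the matrix fell by more. OMD, a small leucine-rich proteoglycan, was at 21.3, 34.7 and 23.4 CPM on day 0 and at 4.97, 5.03 and 8.58 CPM on day 3. The fall of 2.09 ± 0.42 was 4.27-fold (adjusted p = 0.0367, edgeR). SVEP1, a large extracellular adhesion protein, was at 75.4, 62.0 and 74.0 CPM on day 0 and at 22.8, 22.8 and 17.6 CPM on day 3. It fell by 1.74 ± 0.27 (adjusted p = 0.00779, edgeR), and the spread within each day was small beside the gap between them. SRPX2, a secreted sushi-repeat protein, was at 14.8, 13.3 and 13.2 CPM on day 0 and at 1.6, 3.82 and 2.05 CPM on day 3, a fall of 2.47 ± 0.46 (adjusted p = 0.0261, edgeR). GPC3, a glypican anchored in the cell membrane that was likewise chosen after its values were seen, fell by 1.495 ± 0.32, from 8.72 to 11.4 CPM down to 2.78 to 4.83 CPM (adjusted p = 0.0494, edgeR).

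MMP27 and CDH4 were close to the detection limit on day 3. MMP27, a matrix metalloproteinase, had 11, 19 and 15 counts on day 0 and 0, 1 and 2 counts on day 3, so its summed level on day 0 was 15.4 times that of day 3 with a 95% counting interval from 4.94 to 77.4. CDH4, a classical cadherin of cell contacts, had 26, 26 and 29 counts on day 0 and 3, 0 and 3 counts on day 3, a ratio of 13.8 with an interval from 6.09 to 38.8. Both were called lower by edgeR's quasi-likelihood test, with adjusted p of 0.0464 and 0.0254.

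Among the 40 matrix genes of the list used here, 35 were tested. The 2 called genes were COL3A1 and COL1A2, both lower, beside 0.274% of all genes. The median log2 fold change of the 35 was -0.37, beside 0.01 for all genes tested. In 14 of them every library of day 3 was below every library of day 0, and in 3 every library of day 3 was above, beside 8.82% and 8.24% of all genes. DESeq2's Wald test called 5 of them lower, which are COL3A1, COL1A2, COL5A1, COL12A1 and VCAN, beside 0.743% of all genes. VCAN, the large chondroitin sulphate proteoglycan versican, was at 311, 423 and 393 CPM on day 0 and at 71.0, 117 and 95.4 CPM on day 3. Its log2 fold change of -1.99 ± 0.49 did not pass edgeR's test (adjusted p = 0.106), although the groups were far apart. COL12A1, a collagen that binds to the surface of fibrils, was at 220 to 267 CPM on day 0 and 50.8 to 70.5 CPM on day 3, with -1.97 ± 0.50 (adjusted p = 0.121, edgeR). COL5A1, a minor fibrillar collagen, was at 559 to 704 CPM and 277 to 323 CPM, with -1.13 ± 0.27 (adjusted p = 0.0902, edgeR), and SPARC, a collagen-binding glycoprotein, at 187 to 205 CPM and 86.6 to 139 CPM (adjusted p = 0.205, edgeR).

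The matrix was not lower throughout. DCN, the proteoglycan decorin, was at 2486, 1618 and 2004 CPM on day 0 and at 1206, 1253 and 1647 CPM on day 3, with an overlap between the days. The summed level of the 35 matrix genes was 25961 to 30169 CPM on day 0 and 14870 to 16053 CPM on day 3, and COL3A1 took more of these counts than any other member. The levels of fibroblasts and muscle were read beside these values. Of 8 tested stromal markers, 4 had a positive and 4 a negative log2 fold change. COL3A1, itself in that list, was the single one called, beside 0.274% of all genes called lower. PDGFRA, a receptor of stromal fibroblasts, was at 27.6 to 37.7 CPM on day 0 and 57.0 to 76.7 CPM on day 3 (log2 fold change 0.98 ± 0.28, adjusted p = 0.175, edgeR).

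Markers of smooth muscle, which forms the myometrium below the endometrium, were lower in part. Of 12 tested, 10 had a negative log2 fold change and 0 were called by edgeR's quasi-likelihood test, while 3 had an unadjusted p under 0.05 with the lower level on day 3 (4.28% of all genes) and DESeq2 called 2 lower (0.743% of all genes). ACTG2, the enteric smooth muscle actin, was at 33.6, 64.5 and 84.5 CPM on day 0 and at 2.95, 3.22 and 13.7 CPM on day 3 (log2 fold change -3.20 ± 0.84, adjusted p = 0.142, edgeR). The day 3 values are far below those of day 0, but the libraries of each day varied widely. DES, the muscle filament desmin, was at 52.5 to 92.0 CPM on day 0 and 10.8 to 23.3 CPM on day 3, and CNN1, calponin of smooth muscle, at 41.0 to 71.3 CPM and 7.64 to 32.4 CPM. ACTA2, an actin that smooth muscle shares with other contractile cells, overlapped, at 206 to 339 CPM on day 0 and 57.7 to 297 CPM on day 3. The summed level of the 12 was 1130 to 1666 CPM on day 0 and 655 to 1449 CPM on day 3. The part of muscle in the lower collagen was not tested.

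GREB1, a gene induced by oestradiol through its receptor, was among the largest falls. It was at 21.8, 47.0 and 29.6 CPM on day 0 and at 4.29, 4.02 and 2.14 CPM on day 3. The fall of 3.23 ± 0.68 on the log2 scale was 9.35-fold (adjusted p = 0.0489, edgeR's quasi-likelihood test). The changes of the receptors themselves were smaller and were not called. ESR1, oestrogen receptor alpha, was at 629, 597 and 710 CPM on day 0 and at 545, 510 and 567 CPM on day 3, with a log2 fold change of -0.26 ± 0.26 (adjusted p = 0.881, edgeR). Its libraries of day 3 were all below those of day 0, as in 8.82% of all genes. PGR, the progesterone receptor, was at 70.9, 71.8 and 83.6 CPM on day 0 and at 54.6, 45.9 and 71.6 CPM on day 3 (-0.40 ± 0.28, adjusted p = 0.791, edgeR), and the days overlapped. Of 19 tested hormone receptors, 0 were called by edgeR or by DESeq2, and 2 had an unadjusted p under 0.05 with the higher level on day 3, beside 4.72% of all genes.

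OVGP1, a glycoprotein best known as a secretion of the oviduct, was at 31.3, 24.6 and 112 CPM on day 0 and at 3.03, 7.85 and 1.46 CPM on day 3. It fell by 3.77 ± 0.70, or 13.6-fold (adjusted p = 0.0261, edgeR), and day 0 library 3 was far above the other 2 of its day. In the oviduct itself OVGP1 was at 53142 to 193176 CPM on day 0 and at 15068 to 245502 CPM on day 3. Markers of ciliated epithelium, which the oviduct has in quantity, had a summed level of 670 to 1022 CPM in the endometrium on day 0 and 520 to 755 CPM on day 3. Whether traces of other tissue had a part in the level of OVGP1 was not tested.

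OVGP1 was the single call among 25 tested genes for uterine secretions and transporters, beside 0.274% of all genes called lower. The median log2 fold change of the 25 was -0.01. Every library of day 3 was below every library of day 0 in 3 of them, and above in 3. The shares over all genes were 8.82% and 8.24%. CLU, the abundant secreted chaperone clusterin, was at 3842, 2950 and 3302 CPM on day 0 and at 3067, 3611 and 1189 CPM on day 3. Day 3 library 3 held the lowest level of CLU, and the other libraries overlapped. RBP4, the carrier of retinol in blood and in uterine fluid, was at 222, 636 and 147 CPM on day 0 and at 36.8, 87.6 and 21.4 CPM on day 3 (log2 fold change -2.79 ± 1.19, adjusted p = 0.464, edgeR). The groups of RBP4 did not overlap, as in 8.82% of all genes, but the libraries of each day were far from each other.

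CLDN10, a tight junction protein of epithelia, was the single call among 35 tested genes of adhesion and junctions (0.274% of all genes called lower). It was at 266, 301 and 297 CPM on day 0 and at 103, 158 and 81.7 CPM on day 3, a fall of 1.33 ± 0.28 (adjusted p = 0.0494, edgeR's quasi-likelihood test). EPCAM, an adhesion molecule found on nearly all epithelial cells, was at 630 to 656 CPM on day 0 and 444 to 525 CPM on day 3, whereas the levels of KRT8 given above lay higher on day 3. Of the 9 tested epithelial markers, 4 had a positive and 5 a negative log2 fold change, and 0 were called by edgeR. At an unadjusted p under 0.05 there was 1 with the lower level, FOXA2, beside 4.28% of all genes. DESeq2 also called FOXA2 lower, beside 0.743% of all genes.

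FOXA2, a transcription factor of the endometrial glands, was at 88.1, 181 and 132 CPM on day 0 and at 57.9, 77.6 and 56.9 CPM on day 3 (log2 fold change -1.06 ± 0.27, adjusted p = 0.121, edgeR). IHH, the Hedgehog ligand that the uterine epithelium sends to the stroma, was at 45.2, 58.4 and 99.2 CPM on day 0 and at 18.6, 9.76 and 30.9 CPM on day 3 (-1.77 ± 0.50, adjusted p = 0.175, edgeR). PTCH1, its receptor and a target of the pathway, was at 127 to 153 CPM on day 0 and 72.2 to 78.8 CPM on day 3. HHIP, a target that binds and holds back the ligand, was at 2.11 to 4.52 CPM and 0.302 to 1.66 CPM. All 4 genes were lower in every library of day 3 than in every library of day 0, and none passed edgeR's test. Of the 34 tested genes of their list, 8 were lower in this way and 4 had every library of day 3 above. The shares over all genes were 8.82% and 8.24%. Of the 34 tested genes of the Wnt, Notch, Hedgehog and Hox list, 0 were called by edgeR, 7 had an unadjusted p under 0.05 with the lower level (4.28% of all genes) and 4 with the higher level on day 3 (4.72%), and DESeq2 called 3 lower (IHH, HHIP and FOXA2), beside 0.743% of all genes. These genes were picked for naming after their values were seen.

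The remaining named falls belong to no list. MUSK, the receptor tyrosine kinase of the neuromuscular junction, was at 9.53, 9.16 and 7.20 CPM on day 0 and at 1.43, 2.01 and 1.75 CPM on day 3, a fall of 2.31 ± 0.45 (adjusted p = 0.0322, edgeR). MUSK and SVEP1 are neighbours in the Sscrofa11.1 gene table and do not overlap there. Reads that belong to one and were counted for the other could not be examined with the files used here. CDA, cytidine deaminase, was at 50.8, 111 and 92.6 CPM on day 0 and at 17.1, 18.9 and 25.4 CPM on day 3, a fall of 2.05 ± 0.40 (adjusted p = 0.0334, edgeR). SNTB1, a syntrophin of the dystrophin complex, was at 262, 651 and 428 CPM on day 0 and at 143, 164 and 148 CPM on day 3, and fell by 1.56 ± 0.31 (adjusted p = 0.0367, edgeR). For CDA and SNTB1, day 0 library 1 was the lowest of its day, and the libraries of day 3 lay close together. METTL17, a factor of the mitochondrial ribosome, fell by 1.51 ± 0.30, from 196 to 307 CPM down to 62.1 to 115 CPM (adjusted p = 0.0367, edgeR), and TMEM82, a transmembrane protein, by 1.52 ± 0.29, from 3.23 to 5.92 CPM down to 1.36 to 1.71 CPM (adjusted p = 0.0291, edgeR).

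Outside the rule for named genes, 7 more falls with a symbol were between 1.63-fold and 2.32-fold. They are given because their values were seen, and they include KREMEN1, a receptor for the Wnt inhibitors of the Dickkopf family, at 143 to 167 CPM on day 0 and 79.9 to 95.7 CPM on day 3, and MAN2A1, an enzyme that trims N-glycans in the Golgi, at 166 to 204 CPM and 69.9 to 106 CPM. The others are PLEKHA1, RHPN2, ATP9A, ZNF330 and PRMT2.

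Of the 10 genes that rose, the largest change with a symbol was that of PPP2R2B, a regulatory subunit of protein phosphatase 2A. PPP2R2B was at 6.62, 4.39 and 5.81 CPM on day 0 and at 54.0, 45.6 and 22.2 CPM on day 3. The rise of 2.85 ± 0.43 on the log2 scale was 7.23-fold (adjusted p = 0.00779, edgeR's quasi-likelihood test), and day 3 library 3 was the lowest of its day but still far above day 0. PDGFD, a platelet-derived growth factor for stromal and vascular cells, was at 9.43, 7.06 and 8.58 CPM on day 0 and at 34.4, 30.1 and 17.0 CPM on day 3, a rise of 1.70 ± 0.36 (adjusted p = 0.0489, edgeR). SEMA6D, a transmembrane semaphorin that guides cells and axons, was at 15.5, 8.21 and 13.5 CPM on day 0 and at 42.3, 35.8 and 29.2 CPM on day 3, a rise of 1.53 ± 0.29 (adjusted p = 0.0292, edgeR).

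MOXD1, a copper monooxygenase of the secretory pathway, took the most counts of the 8 risen genes with a symbol. It was at 31.2, 22.6 and 39.8 CPM on day 0 and at 95.1, 65.5 and 96.7 CPM on day 3, a rise of 1.46 ± 0.23 (adjusted p = 0.00832, edgeR). TMEM132C, a transmembrane protein, was at 2.61, 1.34 and 2.49 CPM on day 0 and at 10.4, 8.45 and 12.4 CPM on day 3, a rise of 2.28 ± 0.45 (adjusted p = 0.0367, edgeR). The other 3 were at low levels. CD72, a receptor on B cells, was at 0.702 to 0.923 CPM on day 0 and 2.02 to 2.92 CPM on day 3, BRINP3, a secreted neural protein, at 0.369 to 0.702 CPM and 2.02 to 4.29 CPM, and NLN, the peptidase neurolysin, at 1.29 to 1.34 CPM and 3.52 to 3.61 CPM. Each of these 3 rested on 4 to 14 counts per library of day 0, and their adjusted p were 0.0296, 0.0485 and 0.0191 by edgeR's quasi-likelihood test.

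**Figure D2:**
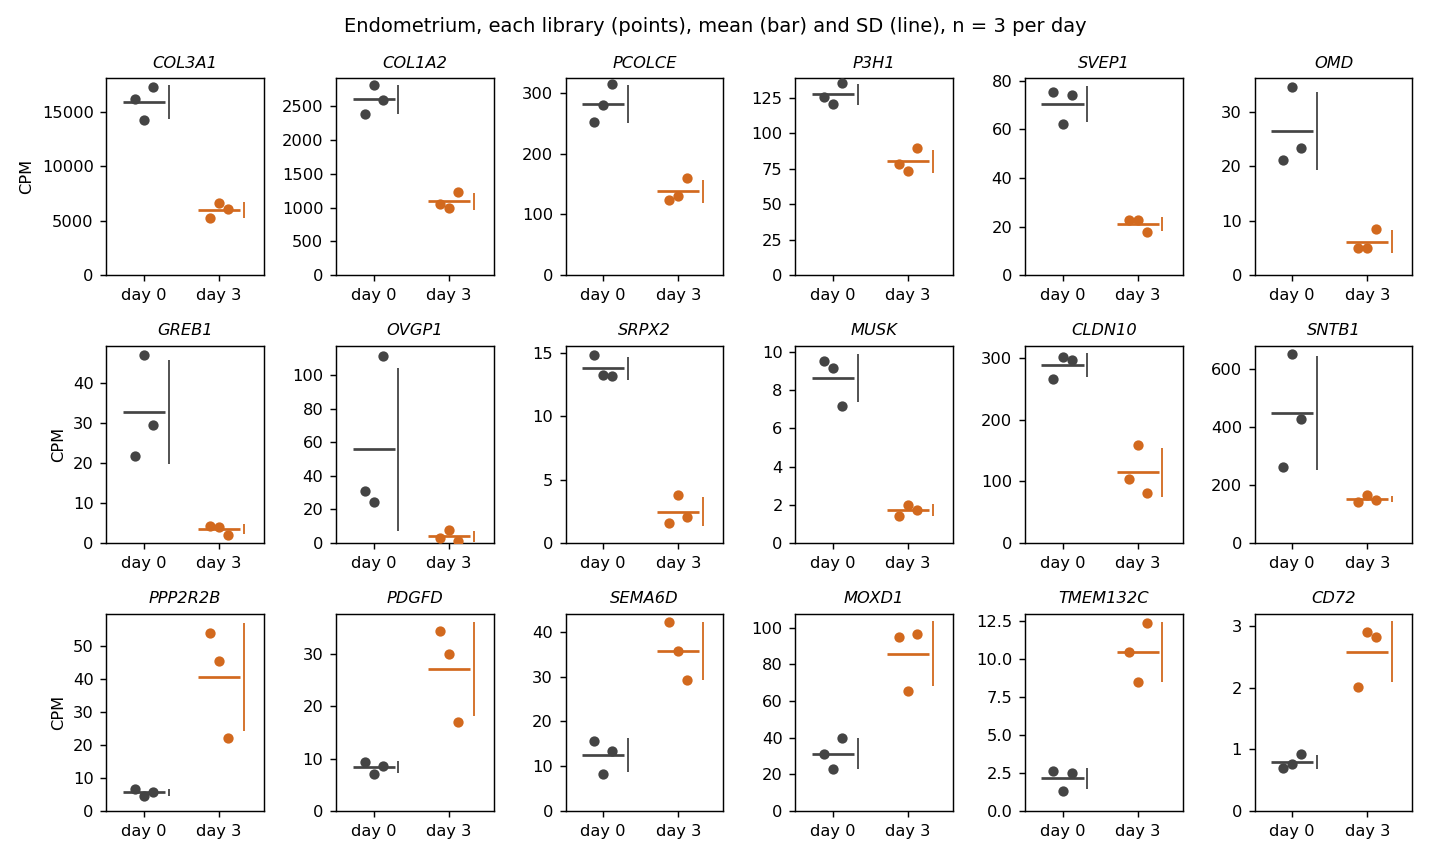
Level in CPM (y axis, linear and from 0, scaled for each gene) of 18 called genes in the 3 endometrial libraries of day 0 (grey) and the 3 of day 3 (orange), with the mean as a bar and the SD as a line beside it. The 12 genes of the first 2 rows fell, with COL3A1 from a mean of 15929 to 5998 CPM, the 6 of the last row rose, and no library of day 3 reaches the range of day 0.

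Markers of T and NK cells were higher on day 3 in all 10 members tested, with log2 fold changes from 0.99 to 1.76 and a median of 1.43. None was called by edgeR's quasi-likelihood test, 9 had an unadjusted p under 0.05 with the higher level on day 3, beside 4.72% of all genes, and DESeq2 called 2 higher, CD8A and LCK, beside 0.489% of all genes. CD8A, a co-receptor of cytotoxic T cells, was at 5.11, 2.10 and 4.52 CPM on day 0 and at 10.8, 19.1 and 10.04 CPM on day 3 (adjusted p = 0.121, edgeR). CD3D, a chain of the T cell receptor complex, was at 2.11, 1.24 and 2.58 CPM on day 0 and at 5.14, 7.64 and 6.24 CPM on day 3 (adjusted p = 0.225, edgeR). In 8 of the 10 markers every library of day 3 was above every library of day 0, beside 8.24% of all genes, and the summed level was 19.9 to 40.0 CPM on day 0 and 68.5 to 93.1 CPM on day 3. Day 0 library 2 was the lowest in CD8A, CD3D and the sum. PRF1, the pore-forming protein of killer cells, was at 1.20 to 2.51 CPM and 4.39 to 5.81 CPM, and CCL5, a chemokine that T cells secrete, at 6.40 to 16.04 CPM and 29.1 to 42.1 CPM (log2 fold change 1.64 ± 0.46, adjusted p = 0.175, edgeR).

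The summed levels of 2 other lists of immune markers overlapped between the days. The 6 tested markers of macrophages and dendritic cells summed to 80.2 to 168 CPM on day 0 and 136 to 289 CPM on day 3, and the 5 of neutrophils and eosinophils to 7.83 to 14.4 CPM and 10.4 to 24.7 CPM. In both lists day 3 library 3 was within the range of day 0, and 0 members were called by edgeR or DESeq2. A macrophage marker was the 1 member with an unadjusted p under 0.05, with the higher level on day 3 (4.72% of all genes). Of the 4 tested markers of B and plasma cells, XBP1 carried most of the sum, which was 226 to 267 CPM on day 0 and 148 to 172 CPM on day 3 without an overlap. XBP1 is also expressed by other secretory cells. XBP1 was at 212, 253 and 244 CPM on day 0 and at 149, 131 and 163 CPM on day 3 (log2 fold change -0.68 ± 0.18, adjusted p = 0.121, edgeR). It was the single member with an unadjusted p under 0.05, beside 4.28% of all genes with the lower level. Of the 22 tested interferon-stimulated genes, 21 had a positive log2 fold change, beside 7886 of all 15341 genes, with a median of 0.34. None was called by edgeR or DESeq2. At an unadjusted p under 0.05 there were 2 with the higher level on day 3, beside 4.72% of all genes. IRF1, a transcription factor induced by interferon gamma, was at 51.1 to 71.7 CPM on day 0 and 74.9 to 116 CPM on day 3. Its groups did not overlap, as in 8.24% of all genes with the higher level. The summed level of the 22 was 918 to 1399 CPM on day 0 and 1065 to 1634 CPM on day 3, with an overlap.

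Genes of the secretory pathway, which fold and carry proteins such as procollagen, were lower by a small amount. Of the 23 tested, 21 had a negative log2 fold change, beside 7446 of all 15341 genes, with a median of -0.28. In 9 every library of day 3 was below every library of day 0, beside 8.82% of all genes. None was called by edgeR, and 4 had an unadjusted p under 0.05 with the lower level (4.28% of all genes). DESeq2 called XBP1 lower, beside 0.743% of all genes. The sum of the 23 was 7376 to 8291 CPM on day 0 and 6152 to 7336 CPM on day 3, so the days came close to each other.

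In the prostaglandin and eicosanoid pathway 17 of 21 tested genes had a positive log2 fold change, beside 7886 of all 15341 genes. Their median was 0.35, and 0 were called by edgeR. At an unadjusted p under 0.05 there was 1 higher and 1 lower gene, beside 4.72% and 4.28% of all genes. DESeq2 called PTGER3 higher and TBXAS1 lower, beside 0.489% and 0.743% of all genes. PTGER3, a receptor for prostaglandin E2, was at 0.802, 0.764 and 0.738 CPM on day 0 and at 4.88, 2.62 and 2.63 CPM on day 3 (log2 fold change 2.12 ± 0.53, adjusted p = 0.112, edgeR). TBXAS1, which makes thromboxane, was at 1.504, 5.35 and 6.28 CPM on day 0 and at 0.168, 1.01 and 0.975 CPM on day 3 (-2.62 ± 0.77, adjusted p = 0.205, edgeR). The first of these TBXAS1 values on day 3 was below the detection limit of 3 counts. PTGER2, another receptor for prostaglandin E2, was at 25.5, 73.1 and 47.3 CPM on day 0 and at 16.5, 20.6 and 14.8 CPM on day 3 (-1.49 ± 0.78, adjusted p = 0.620, edgeR).

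A list of endometrial genes that had been measured by qPCR was chosen on these same gilts, so it is not independent of them. Of its 7 genes 5 were tested here, with a median log2 fold change of -0.50. All 5 changes were negative, beside 7446 of all 15341 genes, and 0 were called by edgeR or DESeq2. At an unadjusted p under 0.05 there was 1 with the lower level, beside 4.28% of all genes. HSD11B1, which makes active glucocorticoid from its inactive form, was at 185, 109 and 148 CPM on day 0 and at 59.7, 64.6 and 26.6 CPM on day 3 (-1.55 ± 0.47, adjusted p = 0.221, edgeR). The groups did not overlap, as in 8.82% of all genes with the lower level, and day 3 library 3 was again the lowest.

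In the lists for proliferation and sterol synthesis 1 library of day 3 was far above the other 2. Of 39 tested cell cycle genes, 38 had a positive log2 fold change with a median of 0.66, but 0 were called by edgeR or DESeq2 and 0 had an unadjusted p under 0.05. TOP2A, a topoisomerase of dividing cells, was at 114, 53.8 and 75.9 CPM on day 0 and at 55.8, 56.2 and 315 CPM on day 3, so 2 libraries of day 3 were at the lower end of day 0. The 21 tested cholesterol genes, 19 of them with a positive log2 fold change and a median of 0.54, summed to 1084 to 1509 CPM on day 0 and to 1468, 892 and 3137 CPM on day 3. The highest value was again that of library 3. None of the cholesterol genes was called by edgeR or DESeq2. At an unadjusted p under 0.05 there was 1 with the higher level on day 3, beside 4.72% of all genes. Positive log2 fold changes were found in 7886 of all 15341 genes, beside the 38 of 39 and 19 of 21 of these lists. Of the 10 tested endothelial markers, 7 had a positive and 3 a negative log2 fold change, with a median of 0.24. None was called by edgeR or DESeq2. Their summed level was 729 to 798 CPM on day 0 and 688 to 883 CPM on day 3, so the days overlapped. PECAM1, the most abundant of them, had log2 fold changes from -0.78 to -0.41 in the fits without 1 library. KDR, a receptor of vascular endothelial growth factor, was the single marker with an unadjusted p under 0.05, beside 4.72% of all genes with the higher level. KDR was at 89.7 to 103 CPM on day 0 and 185 to 230 CPM on day 3 (log2 fold change 1.10 ± 0.34, adjusted p = 0.239, edgeR).

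The remaining lists are given by their medians, beside 0.01 for all genes tested. The medians of the log2 fold change were -0.12 for steroid metabolism (10 tested), -0.19 for matrix proteases and their inhibitors (23), 0.04 for ion and water transport (25), 0.27 for innate immune effectors and chemokines (23), and 0.25 for immediate-early and heat-shock genes (21). They were -0.20 for markers of ciliated epithelium (11), 0.32 for mast cells (4), -0.03 for red blood cells (3) and 0.25 for the mitochondrially encoded genes (13). No member of these 9 lists was called by edgeR's quasi-likelihood test. At an unadjusted p under 0.05 they held 7 higher and 7 lower genes on day 3, beside 4.72% and 4.28% of all genes. DESeq2 called CCL5 higher and MMP23B lower, beside 0.489% and 0.743% of all genes. MMP23B, a membrane-bound metalloproteinase, was at 30.8 to 33.8 CPM on day 0 and 10.96 to 17.2 CPM on day 3 (-1.29 ± 0.29, adjusted p = 0.0655, edgeR). The summed red blood cell markers ran from 14.1 to 183 CPM on day 0 and from 9.15 to 123 CPM on day 3, so the spread within a day was wider than the gap between the days.

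**Figure D3:**
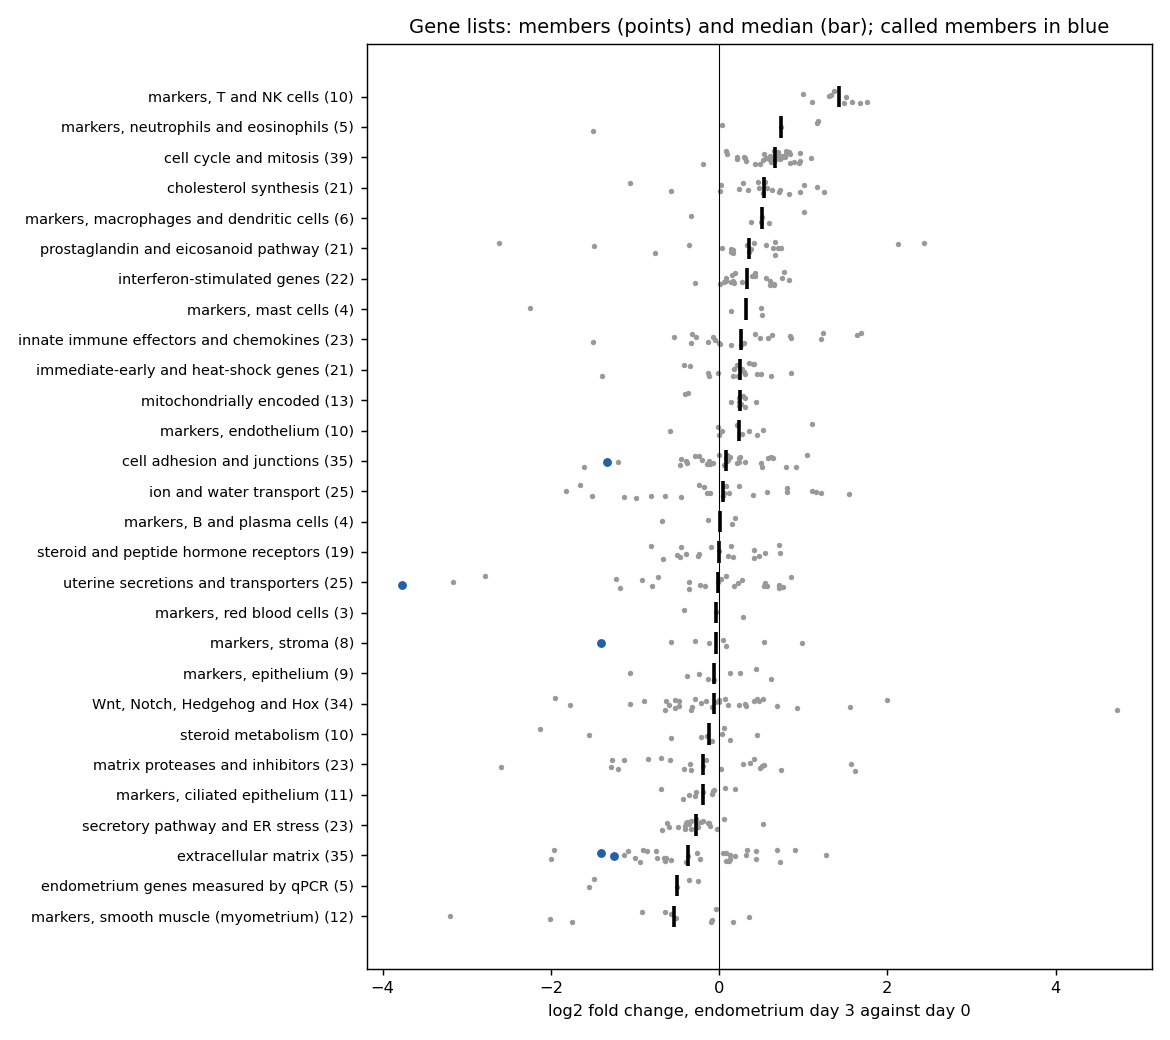
Log2 fold change of day 3 against day 0 in the endometrium (x axis) for each tested member (points) of 28 gene lists, with the number tested in brackets, the median as a bar and called members in blue. The 10 T and NK cell markers all lie above 0 with a median of 1.43, the matrix list has a median of -0.37, and the called points are COL3A1 (in 2 lists), COL1A2, OVGP1 and CLDN10, all with falls.

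The levels of the called genes on the later days of the cycle were then read. Of the 42 genes that fell, 30 had the highest mean of the 7 days on day 0, and 18 had the lowest mean on day 3. Of the 10 that rose, 8 had the highest mean on day 3. These counts use the libraries that made the call, so they are a description. COL3A1 had a mean of 4061 CPM on day 6, 5309 CPM on day 9, 12259 CPM on day 12, 8694 CPM on day 15 and 8293 CPM on day 18, and COL1A2 of 776, 1081, 2086, 1530 and 1845 CPM. Both collagens were thus low from day 3 to day 9 and higher again on day 12. GREB1 stayed low on days 6 and 9, with means of 3.75 and 2.30 CPM, and was at 11.1 CPM on day 12, 41.9 CPM on day 15 and 23.3 CPM on day 18. Its 4 libraries of day 15 ran from 10.8 to 102 CPM, so the highest mean of the 7 days came with a wide spread.

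**Figure D4:**
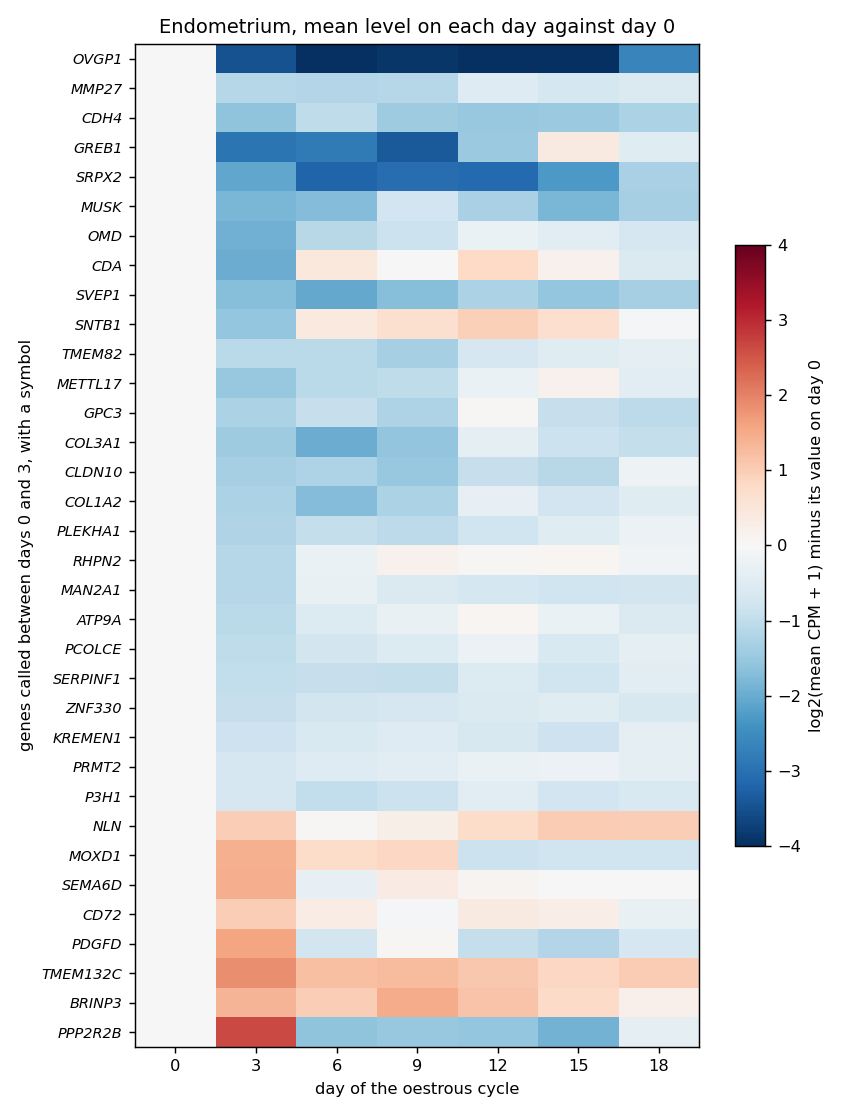
Mean level on each of the 7 days (columns) of the 34 called genes with a symbol (rows, ordered by the log2 fold change of day 3), as log2(mean CPM + 1) minus its value on day 0, blue for lower and red for higher. PPP2R2B, with means of 40.6 CPM on day 3 and 1.19 CPM on day 6, is red on day 3 and blue on day 6, whereas OVGP1 and SRPX2 remain blue on all later days.

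In the next step, from day 3 to day 6, 2898 genes were called (18.9%), of which 1539 were lower on day 6 (10%) and 1359 higher (8.86%). The count was 1753 without day 3 library 1 and 1800 without day 6 library 2. This comparison shares the libraries of day 3 with the one above, so a high or low day 3 moves both. All 10 genes that rose by day 3 had a negative log2 fold change from day 3 to day 6, and 7 of them were called lower by edgeR. PPP2R2B, at 0.846 to 1.37 CPM on day 6, fell by 5.09 ± 0.49 (adjusted p = 1.24e-05, edgeR), to below its level on day 0. PDGFD fell by 2.55 ± 0.37 and SEMA6D by 1.87 ± 0.29, to 3.39 to 6.54 CPM and 7.15 to 12.7 CPM. Of the 42 genes that fell by day 3, 25 had a positive and 17 a negative log2 fold change in this step, with 7 called higher and 3 called lower. CDA was at 97.4 to 145 CPM on day 6, a rise of 2.47 ± 0.41, and SNTB1 at 532 to 637 CPM, a rise of 1.95 ± 0.32, so both were back in or above the range of day 0. SRPX2 was among the 3 called lower, at 0.488 to 0.785 CPM.

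In the comparison of days 6, 9 and 12 with day 18, 4638 genes were called (30.2%). The groups compared hold none of the 6 libraries that made the call. All endometrial libraries were fitted together, however, so those 6 entered the filter, the scaling and the variance estimates used here. The libraries of the later days likewise entered the fit that gave the call, so the comparisons are not independent. Of the 42 fallen genes, 33 had a negative and 9 a positive log2 fold change for the mean of these 3 days against day 18. By edgeR's test 13 were called lower, beside 15.9% of all genes, and 3 higher, beside 14.3%. The count of 13 was 7 without day 18 library 2. The 13 include SRPX2 (log2 fold change -2.83 ± 0.36), GREB1 (-2.35 ± 0.47), OVGP1 (-1.69 ± 0.50), CLDN10 (-1.04) and COL1A2 (-0.62 ± 0.17), while COL3A1, at -0.37 ± 0.20, was not called (adjusted p = 0.161, edgeR). Of the 10 risen genes 8 had a positive and 2 a negative log2 fold change, with 3 called higher than day 18 (MOXD1, CD72 and BRINP3) and 2 called lower (PPP2R2B and NLN).

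The oviduct of the same days served to see where the changes of the endometrium differed. By the study's methods the oviduct and the ovary came from the same gilts as the endometrium, so the tissues are not independent animals. Columns could not be matched to gilts, and the fits treated all libraries as separate. In the oviduct 47 genes were called (0.3%), 0.128% higher and 0.172% lower, with 0 without day 0 library 1, 2 or 3 or without day 3 library 1 or 3, and 166 without day 3 library 2. Of the 42 genes that fell in the endometrium, 40 were tested in the oviduct, and 32 had a negative log2 fold change there, beside 8007 of the 15665 genes tested. Of these, 2 were called lower (0.172% of all genes), neither with a symbol, and DESeq2 called 4 lower (0.958%). At an unadjusted p under 0.05, 12 of the 40 were lower (6.49% of all genes) and 4 were higher (6.19%). COL3A1 was at 4453 to 5912 CPM in the oviduct on day 0 and at 2518, 3972 and 1542 CPM on day 3, and COL1A2 at 982 to 1089 CPM and 511, 668 and 221 CPM. Neither was called there, with adjusted p of 0.551 and 0.438 by edgeR's quasi-likelihood test, and their differences between the tissues were -0.43 ± 0.70 and -0.09 ± 0.65 on the log2 scale. Of the 10 genes that rose, 9 were tested in the oviduct and 4 had a positive log2 fold change. None was called by edgeR, 1 had an unadjusted p under 0.05 with the higher level on day 3 (6.19% of all genes) and 3 with the lower (6.49%), and DESeq2 called 1 higher (0.938%). In the ovary, where day 3 had 2 libraries, 32 of the 40 tested fallen genes had a negative log2 fold change, beside 8391 of 15638 genes. Of the 8 risen genes tested in the ovary 0 were called by edgeR (0.147% of all genes were called higher), 0 had an unadjusted p under 0.05 with the higher level (8.97%) and 3 with the lower, and DESeq2 called 0 higher (2.9%) and 2 lower. None of the 40 was called by edgeR (0.032% of all genes were called lower) or DESeq2 (2.72%), and 1 had an unadjusted p under 0.05 (8.57%).

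The interaction of tissue and day, which tests whether the change differed between the endometrium and the oviduct, was called for 20 of 16292 genes (0.123%), 11 with the higher change in the endometrium (0.0675%) and 9 with the lower (0.0552%), and 7 of them are among the 52, 4 higher and 3 lower. At an unadjusted p under 0.05 the interaction held 8.05% of all genes. The endometrial libraries that chose the 52 genes enter this test too, and the shared gilts were not modelled. PPP2R2B was at 6.34 to 17.1 CPM in the oviduct on day 0 and 7.36 to 10.5 CPM on day 3, and its change differed by 3.02 ± 0.54 on the log2 scale (adjusted p = 0.00902, edgeR). SNTB1, which fell in the endometrium, was at 39.3, 16.5 and 35.3 CPM in the oviduct on day 0 and at 60.01, 39.4 and 78.9 CPM on day 3, a difference of -2.54 ± 0.53 (adjusted p = 0.0338, edgeR). MOXD1, which rose in the endometrium, was at 22.7 to 42.7 CPM and 4.77 to 21.0 CPM in the oviduct, a difference of 2.85 ± 0.61 (adjusted p = 0.0395, edgeR). The days of MOXD1 did not overlap in either tissue, and the higher day was day 3 in the endometrium and day 0 in the oviduct. The count of 7 was 0 without endometrium day 0 library 2 or day 3 library 1, and 4 without day 0 library 3, day 3 library 2 or day 3 library 3. Of the oviduct libraries, it was 1 and 4 without day 0 libraries 2 and 3, and 4 and 2 without day 3 libraries 1 and 3.

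**Figure D5:**
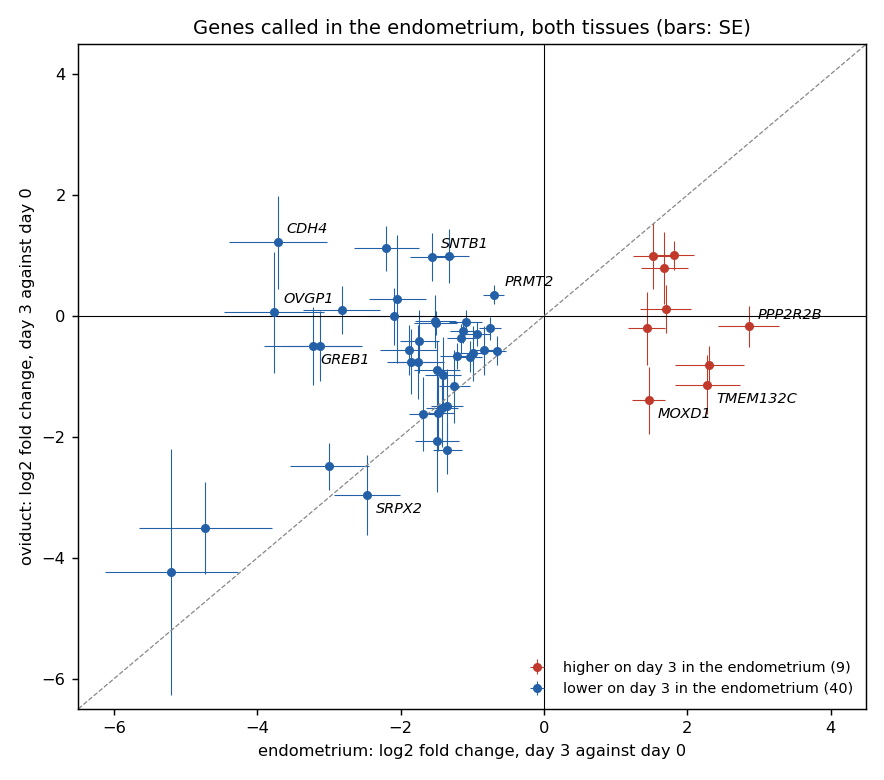
Log2 fold change of day 3 against day 0 in the endometrium (x axis) and in the oviduct (y axis) of the 49 called genes that were tested in both tissues, with SE as bars, red for the 9 higher and blue for the 40 lower in the endometrium, and a dashed line where both changes are equal. Of the blue points 32 are below 0 on the y axis, whereas PPP2R2B, MOXD1 and TMEM132C are positive in the endometrium and negative in the oviduct.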

How the data were processed

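Poly-A RNA was sequenced as paired-end reads. By the study's methods, 13 bases were trimmed from the start of the reads, which TopHat2 then mapped to a pig genome and Ensembl transcriptome. The submitters' processing notes name FastQC, featureCounts, Cufflinks, Cuffdiff and edgeR. The deposited values are whole-number counts for each Ensembl gene, which the authors neither normalized nor pooled. Whether the counting used strand is not given in the sources used here (the labels name a stranded kit, the study's methods the kit without that word), so overlapping and antisense genes cannot be told apart. Of 67 labelled samples, 66 have a column, and 1 of the endometrium of day 12 was not analysed here. Column numbers do not match the numbers in the titles, so columns were assigned to a tissue and day only. The endometrium has 4 libraries of day 15, whereas the study's methods give 3 gilts for each day, so p-values measure the spread between libraries, not all of which may be separate gilts. The 3 tissues came from the same gilts, which the interaction did not model.

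All 22 endometrial libraries were fitted together with day as a factor, in edgeR 4.0.16 and R 4.3.3 (limma 3.58.1), with TMM, filterByExpr and robust glmQLFit, and day 3 was tested against day 0 with glmQLFTest. Genes with a Benjamini-Hochberg adjusted p under 0.05 over all 15341 tested genes were called. Standard errors were derived from the size of the log2 fold change and the root of the F statistic. The oviduct and the ovary were fitted likewise, and the interaction on both tissues together. The steps were first tested on simulated data, with 50 changed genes at each size of change. The changed genes were drawn from those with a mean above 2 CPM over the endometrial libraries, so recovery below that level was not measured. The test of day 3 against day 0 recovered 1 of 50 at 1.5-fold, 23 at 2-fold, 40 at 4-fold and 47 at 8-fold. There were 7 false calls. A gene that was not called can therefore still have changed. Symbols were paired with 11804 of 25322 identifiers (9965 of those tested). GZMA had more than 1 identifier and was left out. Named genes were the 12 largest rises and falls with a symbol (8 rises exist) among called genes with groups that do not overlap and with 10 or more counts in all libraries of the higher day, called list members and the most abundant members of each list, which carry no test. Of 710 symbols in 28 lists, 459 were tested, 214 had no identifier and 36 had too few counts. The members, lists and other genes named were chosen with earlier results of these data known. Alternatives were DESeq2's size factors, no filter, DESeq2 1.42.0, a fit of only the groups compared, a replicate block and leaving out each library. Figures were drawn with Python 3.11.15, pandas 2.3.3, numpy 2.4.6 and matplotlib 3.10.9. Promoter motifs and sequences were not analysed here.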

Additional observations from a re-analysis of the deposited data

Results flagged for a closer look

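The change from day 0 to day 3 differed between the endometrium and the oviduct in 20 genes by the interaction term of edgeR's quasi-likelihood test. Of the genes called in the endometrium, PPP2R2B differed by 3.02, TMEM132C by 3.41 and MOXD1 by 2.85 on the log2 scale, with the higher change in the endometrium, as did ENSSSCG00000030375 by 3.12. With the lower change in the endometrium, the difference was -2.54 for SNTB1, -1.06 for PRMT2 and -3.32 for ENSSSCG00000014219. The count of 20 was 0 without endometrium day 0 library 2, 3 without day 3 library 1 and 11 without day 3 library 2 or 3. It was 5 and 11 without oviduct day 0 libraries 2 and 3, and 7, 46 and 8 without oviduct day 3 libraries 1, 2 and 3. Among the 4 endometrial libraries of day 15, PPP2R2B had 1.32 CPM in 1 and 0.542 to 0.659 CPM in the others, a gap past Dixon's limit. That limit flags about 1 in 20 groups by chance, and 34 genes were looked at.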

How the results depend on the processing

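With DESeq2's Wald test the 52 genes of the endometrium became 189 (75 higher, 114 lower), the 47 of the oviduct 297, the 28 of the ovary 880 and the 20 of the interaction 65. Without a filter on low counts 6 genes were higher, and 38 of the 52 were kept. In a fit of only the groups compared 25 genes were lower and 17 of the 52 were kept, while the oviduct had 12 and the interaction 1, which was none of the 7 genes named for it. Leaving out 1 library gave 1 to 44 genes in the endometrium (0 to 10 higher, 1 to 37 lower), 1753 to 2801 for day 6 against day 3, 0 to 166 in the oviduct, 0 to 46 for the interaction and, in the ovary, between 0 and 33. Leaving 1 library on a day assumes that it varies like the rest. The replicate block gave 44 genes, 35 of them among the 52. Libraries with the same number had correlations of their deviations from the day means between 0.0349 and 0.212. Of the 6 libraries, 5 correlated best with their own number. By the study's methods the gilts of each day were different animals. The numbers thus cannot pair gilts across days, and these correlations cannot test such a pairing. With DESeq2's size factors 46 of the 52 remained called and the share of rises was 21.74%, beside 19.23%. No alternative turned a direction among the 52. The causes of these differences were not tested. Depth limited the genes with few counts.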
